A study of Mus musculus with 10 samples.

Results

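The CD24medCD49fhigh gate of the mouse mammary gland holds basal cells, and cells of this gate with Thy-1 on the surface (Thy-1+CD24medCD49fhigh) were set against those without it (Thy-1-CD24medCD49fhigh). The groups were taken from the sample titles, with 2 arrays in each, so the comparison used 4 of the 10 arrays of the series. All cells came from virgin females of the inbred FVB strain, aged 6 to 8 weeks. Both groups were untreated, and neither they nor the remaining populations carried an engineered allele that the labels mention. The glands were dissociated with collagenase and hyaluronidase, then dispase, then a short exposure to trypsin. Antibodies to CD45, CD31 and Ter119, and per the methods CD140α, served to leave out leukocytes, endothelial cells, red cells and PDGFRα-bearing stromal cells. The remaining cells were sorted in a double pass on CD24, CD49f (integrin α6) and Thy-1. RNA was labelled from the 3′ end and hybridised to Affymetrix mouse arrays. The labels do not say whether the arrays of a group came from separate animals, so a p-value reflects the spread among these arrays alone, which may be technical. The deposited table gave 2932 features, of which 2560 were named genes, and a gene was named only where the 2 sides did not overlap, except for those encoding sort antigens or discussed by the study and a few said to have been chosen after their values were seen.

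The mammary duct is built of an inner luminal layer, which makes milk and carries the hormone receptors, and an outer basal layer. Basal cells hold contractile filaments like those of smooth muscle, rest on the basement membrane and are the fraction from which a gland can grow after transplantation. Thy-1, encoded by Thy1, is a small glycoprotein tethered to the membrane by a lipid anchor, and is also found on thymocytes, neurons, fibroblasts and pericytes. In bulk RNA of a sorted population, fewer cells of a type and less RNA per cell cannot be told apart.

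Values are log2 intensities that the authors centred for each probe set over the 10 arrays. A value of 1 therefore means 2 times the geometric mean of the 10 arrays and says nothing about abundance. Thy1, the gene of the sort antigen, was read at 2.59 and 0.58 with Thy-1 and at 0.23 and -0.54 without it. Both Thy-1+ arrays were above both Thy-1- arrays, with a log2 difference of 1.74 ± 0.61 (SE, n = 2 arrays per group, limma adjusted p 0.999). The gate was basal by its transcripts in both groups. All 17 measured basal keratins and regulators and all 16 measured smooth muscle contractile genes lay above the 4 luminal arrays in every array of both groups. Of the 13 measured genes shared by luminal cells, the Thy-1+ arrays were below all luminal arrays for 5 and the Thy-1- arrays for 9.

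Individual arrays of a group lay further apart than the group means, which are averages of arrays. The mean absolute difference between replicates was 0.651 in Thy-1+ and 0.582 in Thy-1- cells, against 0.355 between the group means. Averaging alone makes a difference between means smaller than a difference between individual arrays, so no conclusion was drawn from this contrast. Both Thy-1+ arrays lay above both Thy-1- arrays for 507 of 2932 features (17.3%), and the opposite held for 153 (5.22%). Differences were positive for 65% of features. This split depended on the scaling of the arrays. The median feature differed by 0.15 toward Thy-1+, and with the median of every array set to 0 the counts became 312 (10.6%) and 390 (13.3%), while quantile normalisation gave 418 (14.3%) and 469 (16%). Of the 450 named genes (17.6%) above in Thy-1+ arrays, 275 were still above with array medians at 0, as were all 120 named genes (4.69%) above in Thy-1- arrays, the side that this scaling moves genes toward. Of the 78 named genes above in Thy-1+ arrays by more than 1, 72 kept their side with array medians at 0 and 77 after quantile normalisation. Of the 11 above in Thy-1- arrays by more than 1, 11 and 9 did. The shares of 17.3% and 5.22% are the background for each count of separated genes on a list. The authors kept only probe sets with a 4-fold range over the arrays. Some genes met this only through the group in which they were high, so their separation follows in part from that selection.

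With limma 2 of 2932 features (0.0682%) were called, and Thy-1+ cells had the higher value in both. At an unadjusted p under 0.05 there were 74 features (2.52%). The called genes were Col3a1, which encodes the fibrillar collagen of loose connective tissue, and Abca8a, an ABC-family lipid transporter. Col3a1 was at 2.21 and 2.48 in Thy-1+ and at -0.84 and -1.05 in Thy-1- arrays. The arrays of each group lay close together and the space between the groups was 3.05, the widest of all named genes. The difference was 3.29 ± 0.50 (limma adjusted p 0.00389), a 9.78-fold difference in intensity. Abca8a was at 1.92 and 2.82 in Thy-1+ and at -0.79 and 0.04 in Thy-1- arrays, a difference of 2.74 ± 0.52 (limma adjusted p 0.0474). Col3a1 stayed called under both other scalings and Abca8a did not (limma adjusted p 0.0663 with array medians at 0 and 0.0835 after quantile normalisation). Without any single Thy-1+ or Thy-1- array no feature was called, and the limma adjusted p of Col3a1 then lay between 0.0939 and 0.311 and that of Abca8a between 0.0939 and 0.997. The differences themselves then lay between 3.15 and 3.43 for Col3a1 and between 2.29 and 3.19 for Abca8a. In those fits a group of 1 array is assumed to vary like the other populations.

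Several but not all collagen genes of connective tissue were above in Thy-1+ arrays. The promoter windows of Col3a1 and Col1a2, 250 bases before to 50 after the start in RefSeq on GRCm38.p6, are shown because these genes had the widest separations among the collagens, at chr1:45311288-45311587 and chr6:4505368-4505667, both on the plus strand. Capitals mark motifs searched on both strands. These were the TATA box in the form TATAAA and, further, the box named after its letters CCAAT. The E-box read by ZEB and SNAI proteins was searched as CACCTG. The motifs do not overlap one another in these windows.
Col3a1: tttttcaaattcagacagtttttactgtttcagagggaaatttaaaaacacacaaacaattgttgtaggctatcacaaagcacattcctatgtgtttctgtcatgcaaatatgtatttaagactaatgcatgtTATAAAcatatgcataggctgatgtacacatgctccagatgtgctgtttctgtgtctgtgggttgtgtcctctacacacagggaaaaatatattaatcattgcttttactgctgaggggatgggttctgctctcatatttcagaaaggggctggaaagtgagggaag
Col1a2: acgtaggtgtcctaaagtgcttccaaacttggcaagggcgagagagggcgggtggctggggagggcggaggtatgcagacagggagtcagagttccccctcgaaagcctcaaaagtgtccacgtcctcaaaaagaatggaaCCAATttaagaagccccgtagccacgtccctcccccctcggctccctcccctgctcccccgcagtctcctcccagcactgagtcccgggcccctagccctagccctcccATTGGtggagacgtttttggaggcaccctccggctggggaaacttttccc
The Col3a1 window held 1 match to the TATA box, at position -117 from the start. The Col1a2 window held 2 matches to the CCAAT box, of which 1, on the minus strand, lay at the start itself. Neither window held the E-box. A box is counted here wherever its letters occur in a window, and whether any match acts in a promoter was not tested. Of 32851 windows in the mouse table, 13.6% held the TATA box, 37.4% the CCAAT box and 20.2% the E-box. Of the 494 windows of named genes above in Thy-1+ arrays, 8.91% held the TATA box, 35.8% the CCAAT box and 19.4% the E-box. For the 121 windows of those above in Thy-1- arrays the shares were 9.09%, 33.9% and 17.4%. The shares over all windows include genes that were not measured here. Shares among the measured genes alone were not taken, so no conclusion was drawn from the contrast.

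Col1a2, a chain of the main collagen of skin and bone, was at 1.53 and 1.75 in Thy-1+ and at -0.23 and -0.15 in Thy-1- arrays, a difference of 1.83 ± 0.48 (limma adjusted p 0.264). Its partner chain Col1a1 differed by 0.94, and Col6a1, a chain of the beaded filament collagen around cells, by 1.09. Col6a1 passed the 4-fold range filter only through Thy-1+ replicate 1, so it was measured only because that array was high. Dpt, encoding dermatopontin, which binds collagen fibrils, was at 2.01 and 1.10 in Thy-1+ and at -0.80 and -0.65 in Thy-1- arrays. For these genes both Thy-1+ arrays were above both Thy-1- arrays under each of the 3 scalings. Of the 23 genes on the fibroblast list 13 were measured, and 6 of them lay above in both Thy-1+ arrays and 1 in both Thy-1- arrays, against 17.3% and 5.22% of all features. Beside the 5 given, the sixth was Col6a3 (0.63), which overlapped with array medians at 0, and the 1 above in Thy-1- arrays was Serpinf1, the secreted factor PEDF (-0.74). The fibrillar collagens Col5a1 and Col5a2 overlapped and differed by 0.19 each. These last 4 genes were chosen after their values were seen. The list median was 0.54, and only Col3a1 was called. It was -0.03 without Thy-1+ replicate 1, where 6 of 13 members had a positive difference against 51.6% of all features, while Col3a1 then stood at 3.43. The mean of the 13 genes was 1.34 and 1.00 with Thy-1 and 0.25 and 0.44 without it. Pdgfra, Dcn and Lum, which define fibroblasts, were not among the genes analysed here.

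**Figure D1:**
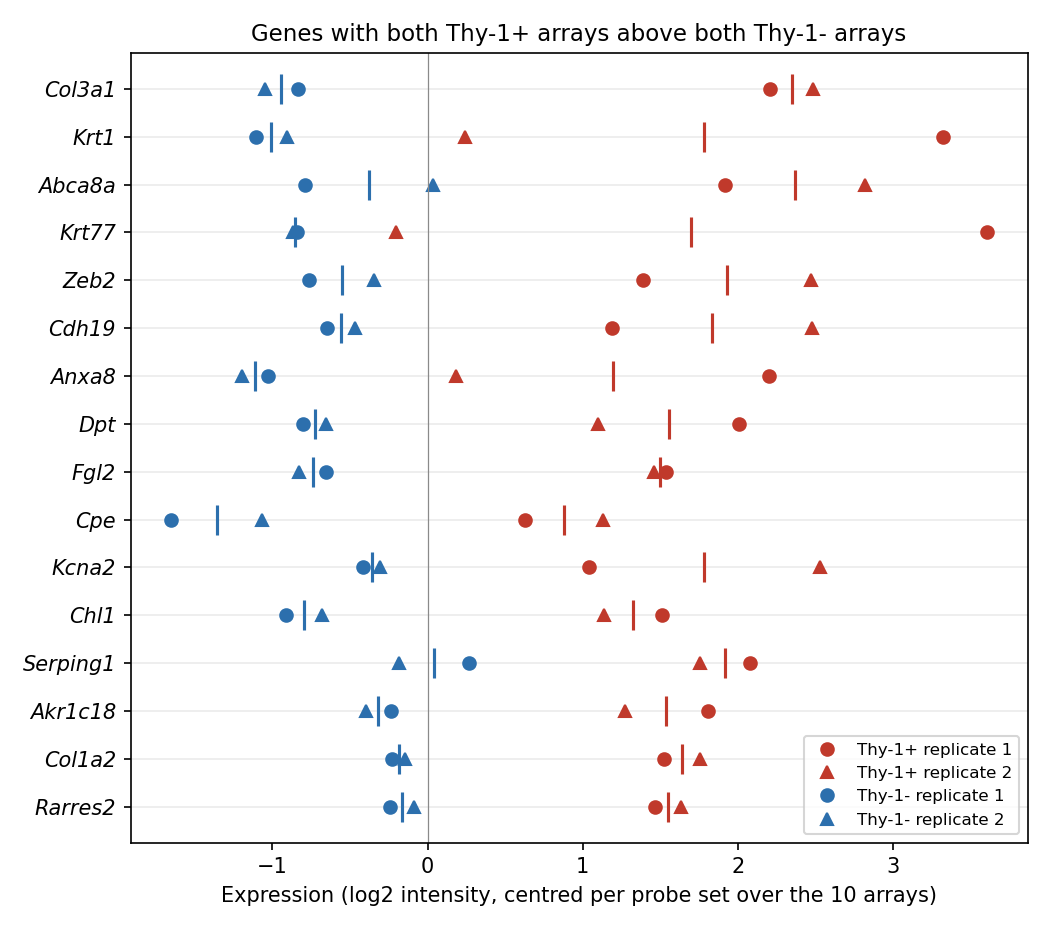
Centred log2 intensity (x axis) of the called genes and of those with the largest differences or widest gaps above in Thy-1+ arrays (y axis), with red for Thy-1+, blue for Thy-1-, circles for replicate 1, triangles for replicate 2 and vertical ticks for the mean of the 2 arrays. Col3a1 has the widest space between the groups (3.05), while in Krt1 the Thy-1+ arrays are at 3.32 and 0.24.

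Zeb2 encodes a zinc-finger repressor that lowers E-cadherin in epithelial to mesenchymal transitions. It was at 1.39 and 2.47 in Thy-1+ and at -0.76 and -0.34 in Thy-1- arrays, a difference of 2.48 ± 0.52 (limma adjusted p 0.0886). The groups were apart by 1.73. Of 9 measured regulators of this transition, Sox4 was the only other one above in Thy-1+ arrays (0.40), and it overlapped after quantile normalisation. The list median was -0.04, and 0.17 without Thy-1- replicate 2. The TGF-beta pathway had 11 measured members, of which 5 lay above in Thy-1+ arrays and 0 in Thy-1- arrays, against 17.3% and 5.22% of all features, with a median of 0.45. With array medians at 0 the counts were 4 and 1, against 10.6% and 13.3%. Tgfbi, a secreted matrix protein induced by the ligand, differed by 1.84, and Inhba, a chain of the ligand activin, by 1.43. Tgfbr2, a receptor, differed by 1.00, Ltbp4, which tethers the latent ligand, by 0.65, and Inhbb by 0.54. Each of these 5 had an adjusted p above 0.9 in limma. The median of the list was -0.03 without Thy-1+ replicate 1 and 0.25 when Thy-1- replicate 2 was left out, and Inhbb overlapped with array medians at 0.

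Some genes best known from Schwann cells were above in Thy-1+ arrays, while others on the same list overlapped. Cdh19, a cadherin of Schwann cell precursors, was at 1.19 and 2.48 in Thy-1+ and at -0.65 and -0.47 in Thy-1- arrays, a difference of 2.39 ± 0.53 (limma adjusted p 0.104). Chl1, an adhesion molecule related to L1, was at 1.51 and 1.13 against -0.91 and -0.68. Kcna1 and Kcna2, the latter not on the list, encode voltage-gated potassium channels that sit beside the nodes of myelinated axons. Kcna2 was at 1.04 and 2.53 against -0.42 and -0.30, and Kcna1 at 1.01 and 1.56 against -0.67 and -0.34. Among these 4 genes no Thy-1- array exceeded 0 and no Thy-1+ array was below 1. Cdh19 and Kcna2 passed the 4-fold range filter only through their Thy-1+ arrays. Mbp, the myelin basic protein, differed by 1.12 and Mal, a protein of membrane rafts in myelin, by 1.10. Of 24 genes on the list 15 were measured. 8 lay above in Thy-1+ arrays (6 with array medians at 0) and 1 in Thy-1- arrays, against 17.3% and 5.22% of all features. The 1 was Ngfr, a neurotrophin receptor (-0.16), chosen after its values were seen. The list median was 0.69 and ranged from 0.40 to 0.83 when single Thy-1+ or Thy-1- arrays were left out, and 0 were called. Several of these transcripts also marked basal cells that were not sorted on Thy-1, since CD24medCD49fmed exceeded the luminal populations by 4.08 in Mbp, 2.21 in Kcna1, 1.60 in Mal and 1.49 in Kcna2, all called by limma. The same comparison gave 1.05 for Cdh19 and 0.96 for Chl1, which were not called (limma adjusted p 0.0518 and 0.062).

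The measured pericyte genes differed evenly. Of 13 on the list 7 were measured, and the median was 1.14. All had a positive difference, against 65% of all features, and 6 lay above in both Thy-1+ arrays under each of the 3 scalings, against 17.3%, 10.6% and 14.3%. Leaving out any Thy-1+ or Thy-1- array gave medians from 0.99 to 1.22. Rgs5, a regulator of G-protein signalling typical of pericytes, was at 1.47 and 1.15 in Thy-1+ and at 0.19 and 0.06 in Thy-1- arrays. Pdgfrb, the receptor through which PDGF recruits pericytes, was at 1.60 and 1.79 against -0.05 and 1.19. Thus Thy-1- replicate 2 came near the Thy-1+ arrays for Pdgfrb but not for Rgs5. Notch3, a receptor of mural cells, was at 0.38 and 0.50 against -0.85 and -0.75. Abcc9 and Kcnj8, the paired subunits of a potassium channel gated by ATP, differed by 1.20 and 1.14. Both passed the 4-fold range filter only through Thy-1+ replicate 2, so they were measured only because that array was high. The mean of the 7 genes was 0.87 and 0.86 with Thy-1 and -0.13 and -0.14 without it. None was called, and Des, Mcam and Vtn were not among the genes analysed here. The part of other cell types in these differences was not tested. None of the 16 genes on the endothelial list and 1 of the 16 on the leukocyte list were among those analysed here.

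Keratinocyte genes of the epidermis gave the largest list median, 1.44, and rested mostly on 1 array. Of 26 genes 16 were measured, all with positive differences, against 65% of all features. Both Thy-1+ arrays were above for 9 of them, against 17.3%, and for 7 under both other scalings. Krt1, a keratin of the suprabasal epidermis, was at 3.32 and 0.24 in Thy-1+ and at -1.11 and -0.91 in Thy-1- arrays. Its relative Krt77 was at 3.60 and -0.20 against -0.84 and -0.87, and Krt10, the partner of Krt1 in filaments, at 2.30 and 0.21 against -0.42 and -0.40. Thy-1+ replicate 1 was far above replicate 2 in each. Among cells not sorted on Thy-1, CD24medCD49fmed replicate 2 was likewise high, at 2.86 for Krt1, 3.17 for Krt77 and 2.09 for Krt10, against -0.40, 0.36 and 0.12 in replicate 3, with list medians of 1.37 and -0.09. Sbsn and Capns2, also of differentiating keratinocytes, differed by 1.67 and 1.58, again with replicate 1 highest. The mean of the 16 genes was 1.89 in Thy-1+ replicate 1, 0.12 in replicate 2, and -0.39 and -0.22 in the Thy-1- arrays, and 14 of 16 were higher in replicate 1 than in replicate 2. Without replicate 1 the median was 0.44 and 13 of 16 were positive, and without replicate 2 it was 2.46. Loricrin and filaggrin (Lor and Flg) were not among the genes analysed here. Anxa8, an annexin not on the list, had the same imbalance, at 2.20 and 0.18 against -1.03 and -1.20.

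**Figure D2:**
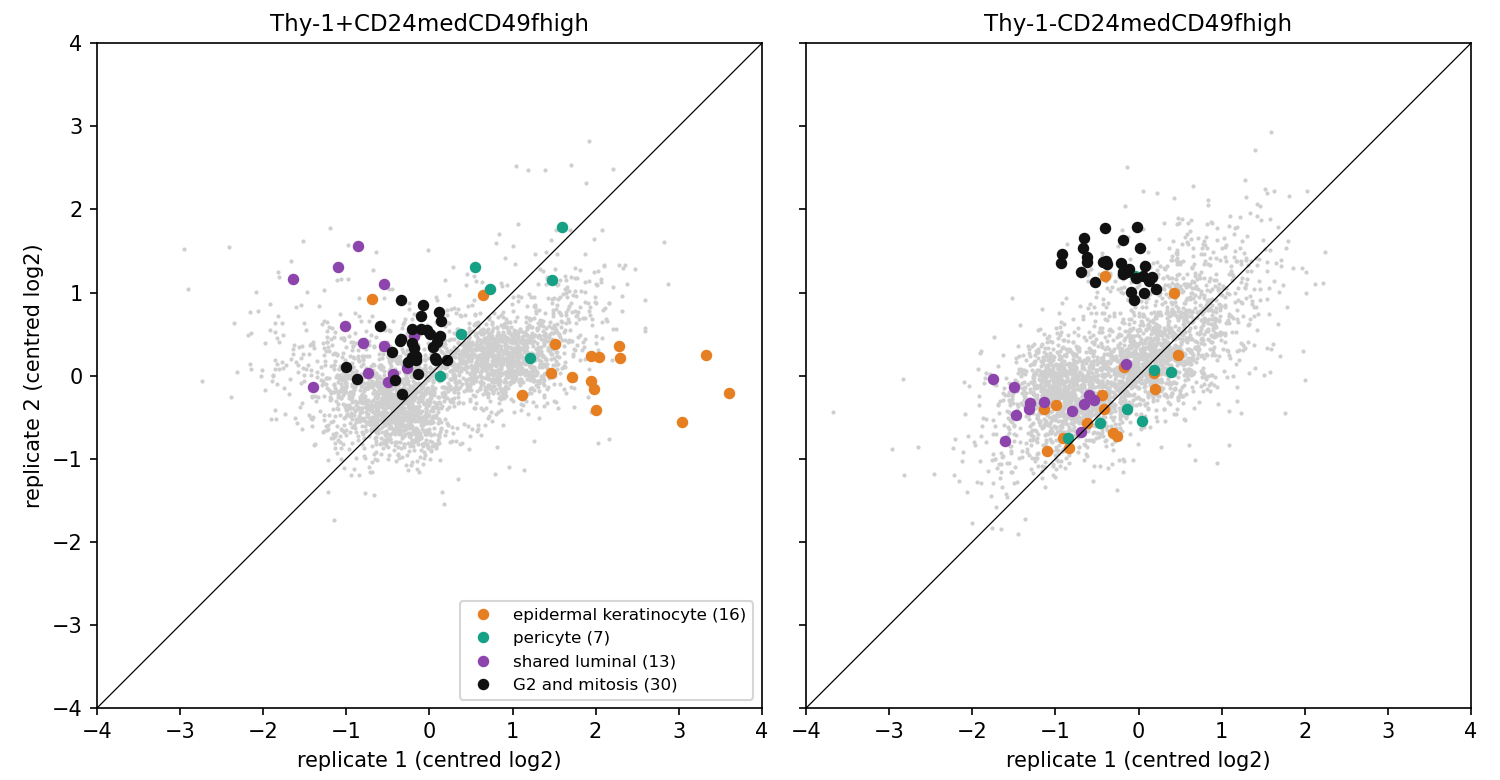
Replicate 2 against replicate 1 (both axes centred log2 intensity) for all 2932 features in grey and 4 gene lists in colour, with Thy-1+ on the left, Thy-1- on the right and the line of equality in black. In Thy-1+ cells 14 of 16 epidermal keratinocyte genes lie on the side of replicate 1, and in Thy-1- cells all 30 G2 and mitosis genes lie on the side of replicate 2.

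Several secreted and metabolic genes outside these lists separated the groups with close replicates. Fgl2, a fibrinogen-like protein with prothrombin-cleaving and immune-regulating forms, was at 1.54 and 1.46 in Thy-1+ and at -0.65 and -0.83 in Thy-1- arrays, a difference of 2.24 ± 0.52 (limma adjusted p 0.153). Akr1c18, a hydroxysteroid dehydrogenase that inactivates progesterone, was at 1.81 and 1.27 against -0.24 and -0.40, and the 6 arrays of the other populations lay between -0.74 and 0.28. Akr1c18 passed the 4-fold range filter only through its Thy-1+ arrays, so the lower values elsewhere follow in part from that selection. Cpe, a carboxypeptidase that trims prohormones, was at 0.63 and 1.13 against -1.65 and -1.06. The Thy-1- arrays were the lowest of all 10 for Cpe, and the 4 luminal arrays spread from -0.55 to 0.88.

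Serping1, the inhibitor of the first complement protease, was at 2.08 and 1.76 in Thy-1+ and at 0.27 and -0.19 in Thy-1- arrays, a difference of 1.88 ± 0.57 (limma adjusted p 0.524). C2, a complement protease, differed by 0.83, but its groups overlapped under both other scalings. These were 2 of the 4 measured genes of the complement and interleukin 33 list, whose median was 1.28. Of 4 measured adipocyte genes Lpl, a lipase, and Fabp4, a fatty acid carrier, were above in Thy-1+ arrays, by 1.17 and 1.13. Lpl was at 0.39 and 0.15 against -1.84 and 0.03, so that its size came from Thy-1- replicate 1. Gbp2, a GTPase induced by interferon, was 1 of 9 measured interferon response genes and the one that separated (0.64). The median of that list was 0.26, and -0.63 without Thy-1+ replicate 2. Of 8 measured immediate early genes Ier2 was above in Thy-1+ arrays (0.63) and Egr3 in Thy-1- arrays (-0.30), with a median of 0.10 that was -0.08 without Thy-1+ replicate 1 and below 0 under both other scalings. These lists had 0 called members.

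**Figure D3:**
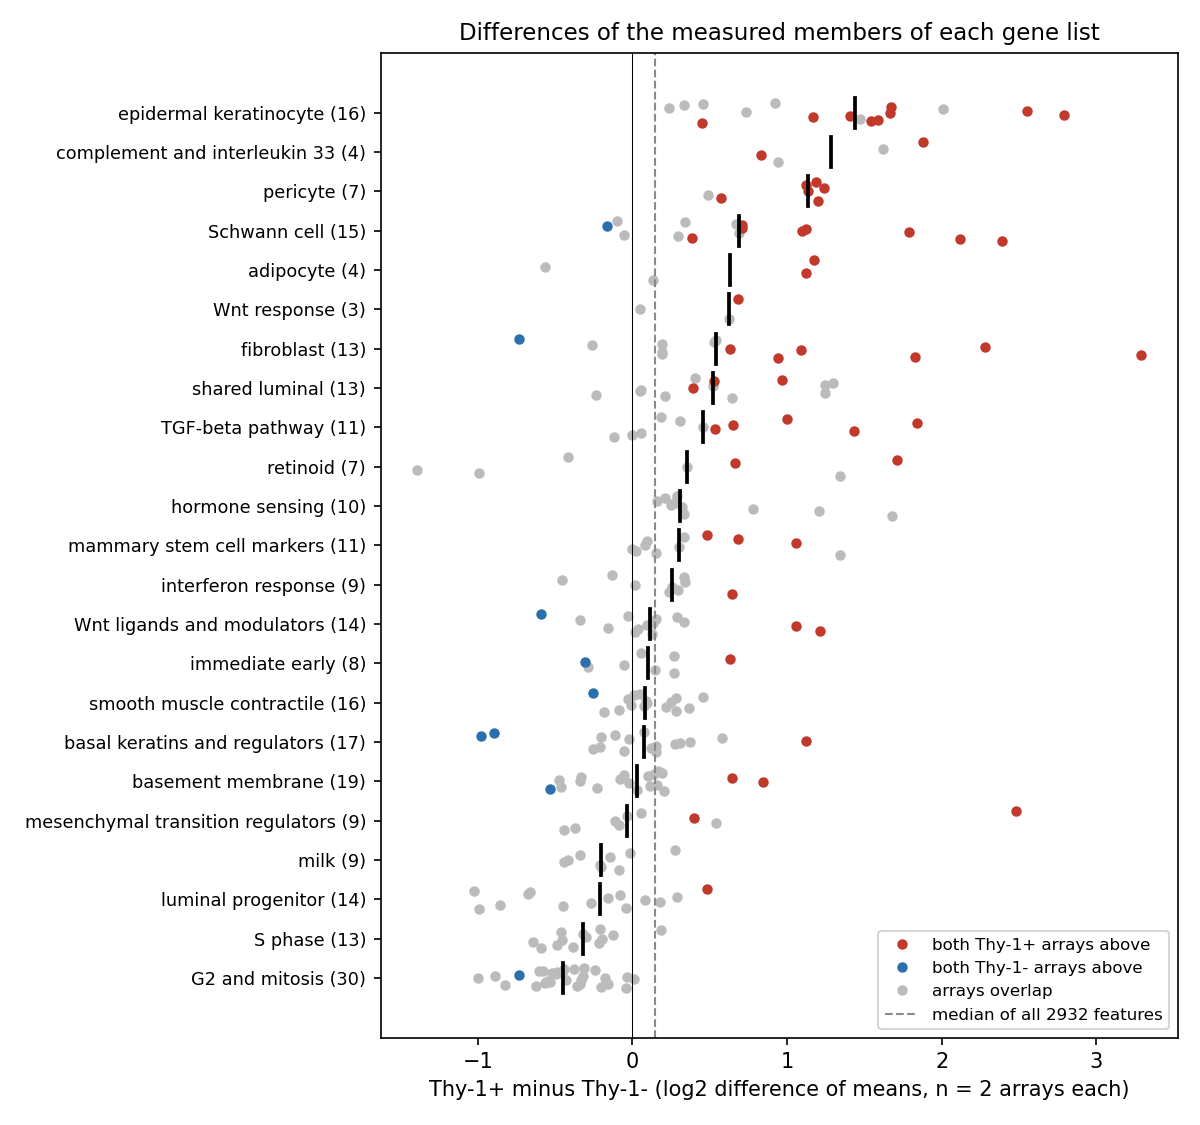
Thy-1+ minus Thy-1- log2 difference (x axis) of each measured member of the gene lists (y axis, number measured in parentheses), coloured by whether the arrays of the groups overlap, with a black bar at the list median and a dashed line at the median of all features (0.15). The epidermal keratinocyte (1.44) and pericyte (1.14) medians lie to the right and G2 and mitosis (-0.45) to the left.

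Among the genes that the study sorted on or discusses, 12 of 18 were measured, and 4 had Thy-1+ arrays above both Thy-1- arrays. The list was taken from the account that the study gives of these cells, part of which rests on these arrays, so its direction is not independent evidence. Not every member went the way of that account. Rarres2, which encodes the chemoattractant chemerin and responds to retinoids, was at 1.46 and 1.63 in Thy-1+ and at -0.24 and -0.09 in Thy-1- arrays, a difference of 1.71 ± 0.49 (limma adjusted p 0.384). Aldh1a1, an enzyme that makes retinoic acid, was at 1.70 and 2.54 against -0.20 and 1.75. Aldh1a1 overlapped, because Thy-1- replicate 2 exceeded Thy-1+ replicate 1. Procr, a surface receptor for protein C, was at 1.10 and 0.94 against 0.29 and 0.39, and none of the 6 arrays of the other populations exceeded 0. Cdkn1a, the cell-cycle inhibitor p21, was at 0.97 and 0.40 against 0.34 and -0.26, and overlapped with array medians at 0. By real-time PCR the paper reports a low level of Cdkn1a in Thy-1+ cells, whereas here these arrays were not the lower ones. The measures are unlike, since centred values do not give a level and the paper does not state the strain used for PCR. Thy1 completes the 4 with Rarres2, Procr and Cdkn1a. Of these, Rarres2, Procr and Thy1 passed the 4-fold range filter only through their Thy-1+ arrays. They were thus measured only because that group was high.

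The lineage genes of the same set overlapped between the groups. Krt14, the basal keratin, was at 2.47 and 1.28 in Thy-1+ and at 2.01 and 1.00 in Thy-1- arrays. Itga6, which encodes CD49f, was at 1.17 and 0.43 against 0.64 and 0.65, and its difference of 0.16 became -0.02 with array medians at 0. Acta2, the smooth muscle actin, differed by -0.18, and the Thy-1- arrays were above under both other scalings. Tbx3, a regulator of hormone-sensing cells, was at -0.41 and 0.08 against -0.76 and 0.10, and its difference of 0.16 became -0.01 with array medians at 0. By real-time PCR the paper found Tbx3 in every sorted population but the Thy-1+ cells, and no such contrast was seen between these arrays. Centred values cannot show whether a gene is expressed at all, so that finding was not tested here. Krt18 and Krt19, luminal keratins, were higher in replicate 2 of both groups, with Krt19 at -0.86 and 1.56 in Thy-1+ and at -1.75 and -0.04 in Thy-1- arrays. Elf5, the regulator of milk-secreting cells, differed by -0.27, or by 0.30 without Thy-1- replicate 2. Cd24a was not among the genes analysed here.

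Basal identity genes showed no direction that held under each scaling. The medians were 0.08 for 17 basal keratins and regulators, 0.08 for 16 contractile genes and 0.03 for 19 basement membrane genes, against 0.15 for all features. With array medians at 0 they were -0.10, -0.09 and -0.14. Positive differences were found in 9, 11 and 10 of these genes, in 5, 6 and 4 with array medians at 0 and in 8, 10 and 7 after quantile normalisation. With array medians at 0, members above in Thy-1- arrays numbered 5, 2 and 5, against 13.3% of all features. Members above in Thy-1+ arrays then numbered 1, 0 and 2, against 10.6%. Without Thy-1+ replicate 1 the medians were -0.43, -0.30 and -0.49, and without Thy-1+ replicate 2 they were 0.49, 0.57 and 0.40. Krt15, a keratin of basal and hair follicle stem cells, was above in Thy-1+ arrays at 2.82 and 1.61 against 0.80 and 1.38. Nrg1, which encodes a ligand of ERBB receptors, and Tbx2, a T-box repressor, were above in Thy-1- arrays. Fras1 and Lama5, basement membrane proteins, differed by 0.84 and 0.64, and Col18a1, the source of endostatin, by -0.53. Tpm2, a tropomyosin, differed by -0.26 and its groups were apart by 0.002.

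Wnt and stem cell genes gave few separations. Of 14 measured Wnt ligands and modulators the median was 0.11, and it was -0.06 with array medians at 0 and -0.35 without Thy-1+ replicate 1. Fzd4, a Wnt receptor, was at -0.86 and 0.24 in Thy-1+ and at -1.58 and -1.46 in Thy-1- arrays, a difference of 1.21 ± 0.54 (limma adjusted p 0.999). All 4 luminal arrays were above both Thy-1+ arrays for Fzd4. Lgr5, the receptor for R-spondins, was at 2.14 and 0.65 against 0.63 and 0.05, and Wnt6 differed by -0.59. For both the groups were apart by less than 0.03, and Lgr5 overlapped with array medians at 0. Of 11 measured mammary stem cell markers Lgr5, Procr and Tspan8, a tetraspanin, lay above in Thy-1+ arrays, with a list median of 0.30. The median was 0.13 under both other scalings. It was 0.0045 once Thy-1- replicate 1 was left out, 0.07 on leaving out Thy-1+ replicate 1 and 0.76 if Thy-1+ replicate 2 was dropped. Tspan8 was lower in both groups than in the luminal arrays and overlapped under both other scalings. Of 7 measured retinoid genes Rarres2 and Dhrs3, a retinal reductase, lay above in Thy-1+ arrays, and the median was 0.35, or -0.08 without Thy-1- replicate 1 and 0.76 when Thy-1- replicate 2 was left out. Aldh1a7, of the aldehyde dehydrogenase family, and Rdh10, a retinol dehydrogenase, were chosen after their values were seen. They differed by -1.39 and -0.42, overlapped, and lay above in Thy-1- arrays under both other scalings.

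Luminal and cell-cycle genes followed replicates more than groups. The shared luminal list had a median of 0.52, with Gata3, Prss8 and Rab25 above in Thy-1+ arrays, by 0.39, 0.53 and 0.97. All 13 measured members were higher in replicate 2 than in replicate 1 of Thy-1+ cells, and likewise of Thy-1- cells, and Gata3 overlapped under both other scalings. All 10 hormone-sensing genes had positive differences (median 0.30), and 0 separated. Without Thy-1+ replicate 2 the median was 0.03 for the shared luminal and -0.18 for the hormone-sensing genes. The median was -0.21 for luminal progenitor genes and -0.20 for milk genes, and 0.15 and 0.33 without Thy-1- replicate 2. Of 30 measured G2 and mitosis genes 1 had a positive difference and the median was -0.45. Its arrays had list medians of -0.16 and 0.37 in Thy-1+ and -0.18 and 1.30 in Thy-1- cells, so that Thy-1- replicate 2 stood above the other 3. Without that array the median was 0.31. Kif2c, a kinesin that depolymerises microtubules, was the member that separated, at -0.33 and -0.23 against -0.09 and 1.00. With array medians at 0 there were 7 such members, against 13.3% of all features, and after quantile normalisation 6, against 16%. The S phase list likewise went from a median of -0.32 to 0.31 without Thy-1- replicate 2.

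Genes above in Thy-1- arrays differed less, and 0 were called. Of 120 such named genes 11 differed by more than 1, against 78 in the opposite direction, and 0 had groups apart by more than 1, against 22. Cntn1, an adhesion molecule of neurons, had the widest space, at 0.52 and 1.59 in Thy-1- and at -0.27 and -0.22 in Thy-1+ arrays, a difference of -1.30 ± 0.54 (limma adjusted p 0.999). Ndn, an imprinted gene encoding the growth suppressor necdin, was at 1.86 and 1.30 against 0.67 and 0.12. Sox11, a transcription factor of embryonic progenitors, was at 0.48 and 1.90 against -0.24 and 0.07. Thy-1- replicate 2 was the higher array for Cntn1 and Sox11 and replicate 1 for Ndn. Cntn1 passed the 4-fold range filter only through Thy-1- replicate 2, so it was measured only because that array was high.

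Nrg1 was at 0.64 and 1.30 in Thy-1- and at 0.04 and -0.05 in Thy-1+ arrays. Zfhx4, a zinc-finger homeobox factor, differed by -1.14, and Ankrd6, a cytoplasmic protein of Wnt signalling, by -1.12. Like Cntn1, both Nrg1 and Ankrd6 passed the 4-fold range filter only through Thy-1- replicate 2. Slc6a15, a transporter of neutral amino acids, differed by -1.17 and Slc1a1, a glutamate transporter, by -0.59. Car4, a membrane carbonic anhydrase, was at 2.01 and -0.05 against -0.53 and -0.22, so that its size came from Thy-1- replicate 1. Efhd1, a mitochondrial calcium-binding protein, and Mark1, a kinase of microtubule-associated proteins, differed by -1.35 and -1.03, and both overlapped after quantile normalisation. Enzymes that modify glycans were also present. St8sia6, a sialyltransferase, differed by -0.99, and Hs3st3a1, a heparan sulfate sulfotransferase, was at 1.58 and 1.88 against 1.05 and 0.70. Arhgap20 was at 1.02 and 1.06 against 0.39 and 0.29, and Rpgr, a protein of the cilium, at 0.29 and 0.05 against -0.76 and -0.65. These last pairs of replicates lay close together. Lrrc19, Zfp389 and Fam71e1 differed by -1.11, -1.09 and -0.91.

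**Figure D4:**
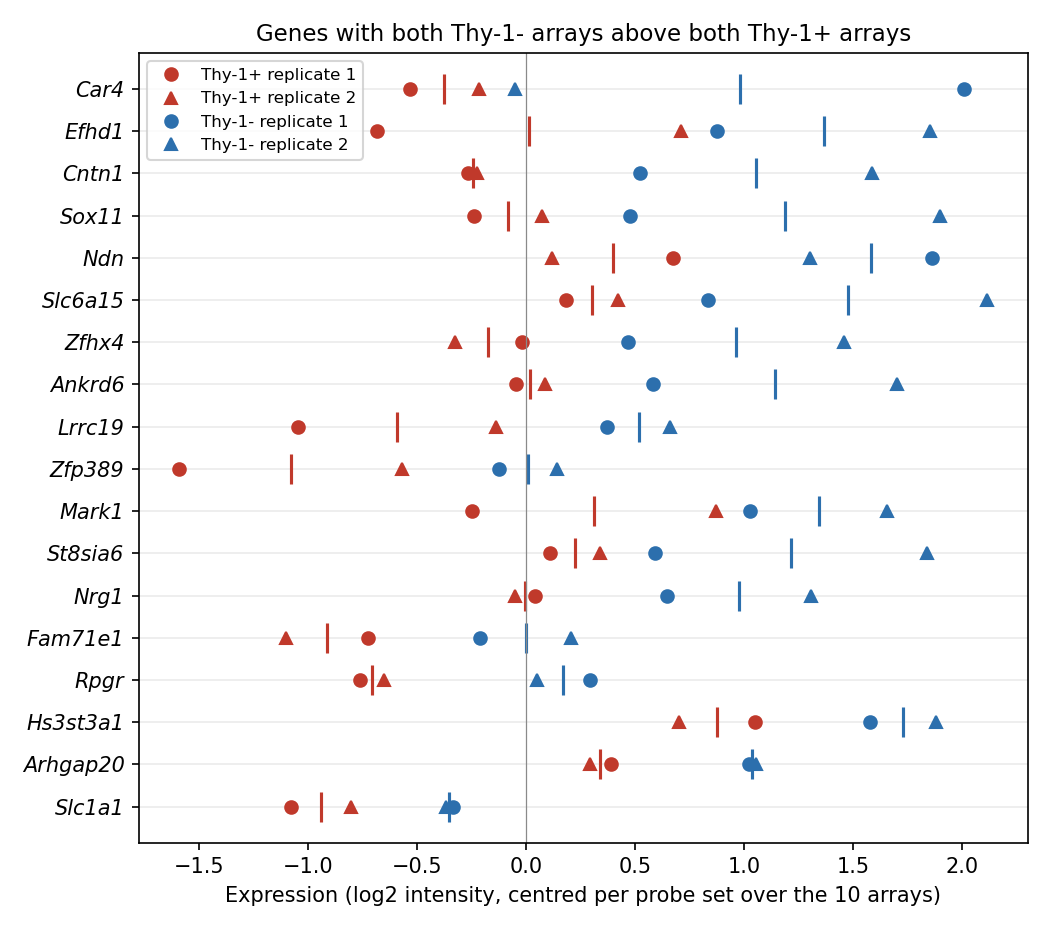
Centred log2 intensity (x axis) of the genes with the largest differences or widest gaps above in Thy-1- arrays (y axis), with symbols and ticks as in the plot of Thy-1+ genes. The groups are apart by 0.75 in Cntn1, and Car4 has one Thy-1- array at 2.01 and the other at -0.05.

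The remaining 6 arrays were used to place these genes as basal or luminal. CD24medCD49fmed cells were compared with the mean of both luminal populations in the same limma model. The means compared share no array with the Thy-1 difference. The variance behind each call came from the fit of all arrays, the Thy-1 arrays included. The calls are therefore not independent of how close the Thy-1 replicates lay. Of 2560 named genes 774 (30.2%) were called higher in CD24medCD49fmed, 817 (31.9%) higher in luminal cells and 969 (37.9%) in neither. Among the 450 named genes above in Thy-1+ arrays, 99 (22%) were called on the basal side, 122 (27.1%) on the luminal side and 229 (50.9%) on neither. Among the 120 above in Thy-1- arrays, 51 (42.5%) were called basal, 34 (28.3%) luminal and 35 (29.2%) neither. With array medians at 0 the shares called basal were 18.9% of 281 and 34.1% of 343. A gene that passed the 4-fold range filter through its Thy-1 arrays needs no basal to luminal difference. These shares are therefore set in part by the filter, and no conclusion was drawn from them.

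At differences of more than 1 the counts were 31 basal, 14 luminal and 33 neither of 78 genes above in Thy-1+ arrays. They were 7 basal, 0 luminal and 4 neither of 11 above in Thy-1- arrays, where the basal ones were Car4, Efhd1, Sox11, Ndn, Slc6a15, Zfhx4 and Ankrd6. Hs3st3a1 (3.93) and Slc6a15 (2.62) had some of the larger basal differences among the named Thy-1- genes, while Rpgr (-1.08) and Slc1a1 (-1.99) were called luminal. On the Thy-1+ side Col3a1 (3.40), Fgl2 (2.71), Abca8a (2.51) and Zeb2 (2.17) were called basal, and Fzd4 (-1.48) and Tgfbr2 (-1.19) luminal. CD24medCD49fmed arrays were at 2.14 and 1.47 for Col3a1 and at 2.04 and 1.07 for Fgl2, far above both Thy-1- arrays. Of the 78 genes, both CD24medCD49fmed arrays exceeded both Thy-1- arrays for 43 and lay below both Thy-1+ arrays for 31. Abca8a, Cdh19, Zeb2, Rarres2 and Col1a2 met both conditions, so that CD24medCD49fmed lay between the Thy-1 groups.

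**Figure D5:**
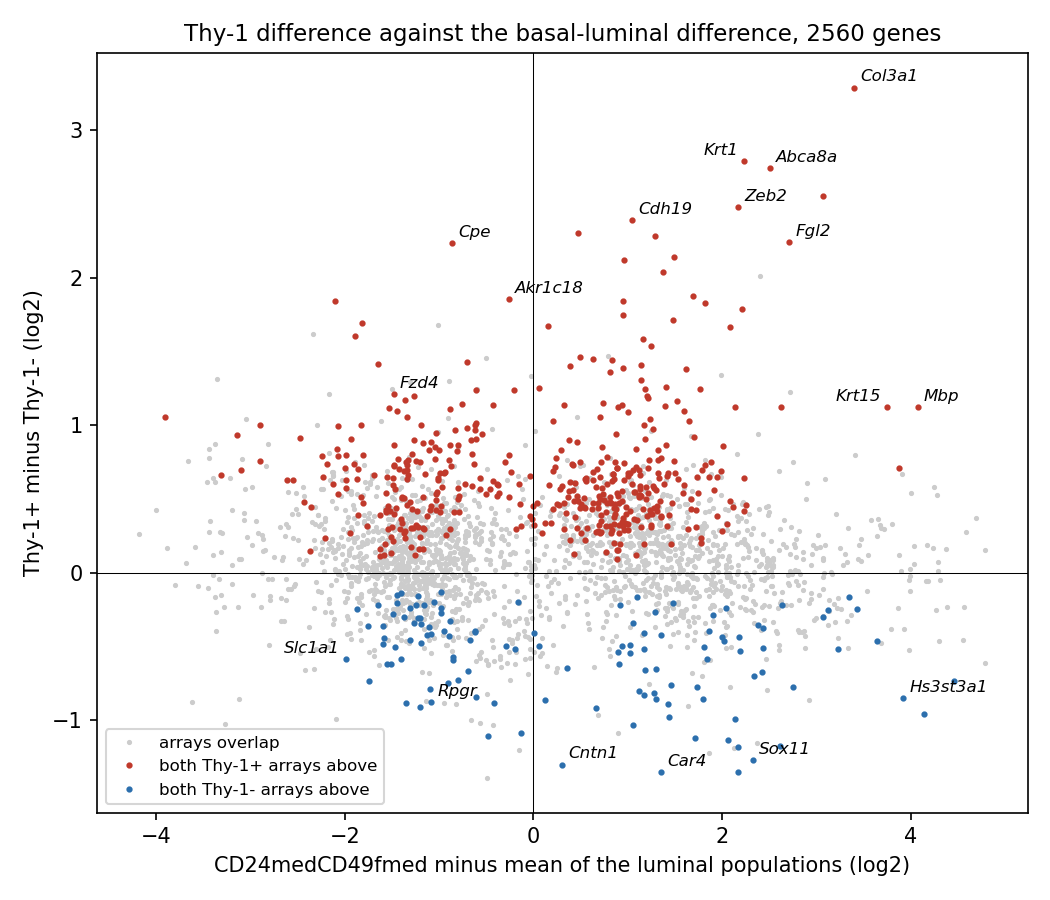
Thy-1+ minus Thy-1- log2 difference (y axis) against CD24medCD49fmed minus the mean of the luminal populations (x axis, log2) for 2560 named genes, coloured by whether the Thy-1 groups overlap. Genes above in Thy-1+ arrays lie on both sides of 0 on the x axis, with Col3a1 at 3.40 and Fzd4 at -1.48.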

How the data were processed

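Total RNA of 5 sorted populations, 2 arrays each, was hybridised to Affymetrix mouse arrays by the authors. The deposited log2 intensities are per probe set, and the authors normalised them by RMA across the arrays, filtered them for a minimum level and a 4-fold range, and centred each probe set on its mean (the labels name RMA and GCRMA). In the table the smallest range was 2.00 and the largest absolute mean 3e-07. Of 3663 probe sets 3291 had 1 symbol, 75 several and 297 were not in the annotation. The probe sets of 554 genes were averaged. The other 372 features were tested as probe sets and are not named. Centring hides abundance and signal over background, genes removed by the filter could not be tested, and 2 arrays per group limit the precision.

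All 10 arrays were fitted together, 1 mean for each population (limma 3.58.1, R 4.3.3, lmFit and eBayes, two-sided, Benjamini-Hochberg adjustment over 2932 features, called under 0.05), with 5 residual and 16.5 prior degrees of freedom. The model and the rank products step were tested on simulated data. Genes named were, among named genes whose groups did not overlap, those called, the 12 with the largest differences and the 12 with the widest gaps per direction, and up to 5 per list from 27 lists. The gap is the lowest array of the higher group minus the highest array of the lower group. The sort genes and those the study discusses were given also where they overlapped. The members and lists were chosen with earlier results of these data known. Alternatives were array medians at 0, quantile normalisation, robust moderation, a replicate block, fewer arrays, probe sets alone, a minimum log2 difference of 1, single arrays left out, and rank products (100 permutations, p under 0.01), the test of the study. The RefSeq windows were matched by symbol for 357 of the 450 and 95 of the 120 named genes.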

Additional observations from a re-analysis of the deposited data

How the results depend on the processing

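The count of called features, 2, stayed 2 with robust moderation and with a minimum difference of 1. It was 1 with array medians at 0, 1 after quantile normalisation, 1 with probe sets tested alone, 6 with only the 6 basal arrays and 13 with only the 4 arrays compared. Rank products gave 63 features at an unadjusted p under 0.01 in either direction, against 58.6 expected by chance. Of the 63, 39 were higher in Thy-1+ cells, and after adjustment 1 feature was called. With 1 array left out the count ranged from 0, for each Thy-1+ or Thy-1- array, to 11, for either CD24medCD49f-/low array. With the replicate block the count was 9, among them Zeb2 (limma adjusted p 0.0205), Cdh19 (0.0327), Dpt (0.046) and Krt1 (0.00461). The block treats arrays with the same replicate number as pairs. The differences between the replicates of a population correlated over features at 0.3 for Thy-1+ with Thy-1- cells and from -0.198 to 0.521 over all pairs of populations, some below 0. The labels do not say what a number marks, so the numbers were not taken as pairs. With the block and with only 4 arrays the prior degrees of freedom were infinite, so that every feature had the same variance.

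Features with both Thy-1+ arrays above numbered 507, with 312 at array medians of 0 and 741 to 1512 when 1 array was left out, a setting chosen after the data were seen that has fewer conditions to meet. Features with both Thy-1- arrays above numbered 153, with 390 at array medians of 0, 469 after quantile normalisation and 256 to 993 with 1 array left out. Differences that turned sign, with the range over single arrays left out, were those of Krt14 (-0.22 to 0.97, also -0.14 when Thy-1- replicate 2 was left out), Krt18 (-0.29 to 1.33), Elf5 (-0.83 to 0.30), Itga6 (-0.22 to 0.53, with -0.016 at array medians of 0 and -0.045 in one probe set alone) and Tbx3 (-0.27 to 0.59, also -0.081 when Thy-1+ replicate 2 was left out, and -0.010 at array medians of 0). The causes were not tested.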

Other observations

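Genes of antigen presentation by MHC class I were looked at after their values had been seen, and their differences are a description. Of 20 genes on a list made for this purpose 6 were measured, all 6 had positive differences, against 65% of all features, and 5 lay above in both Thy-1+ arrays under each of the 3 scalings, against 17.3%, 10.6% and 14.3%. H2-K1, a class I heavy chain, was at 0.55 and 0.62 in Thy-1+ and at -0.48 and -0.59 in Thy-1- arrays. H2-D1, another heavy chain, was at 0.54 and 0.61 against -0.43 and -0.72. The replicates of both genes lay within 0.3 of each other in each group. Psmb9 and Psmb8, subunits of the immunoproteasome, differed by 1.40 and 0.97, and Nlrc5, the regulator that switches on class I genes, by 0.80. The list median was 1.05 and ranged from 0.80 to 1.17 when single Thy-1+ or Thy-1- arrays were left out. None was called by limma (adjusted p 0.999 for each). H2-K1 and H2-D1 share sequence with other class I genes, so probe sets for one may also bind transcripts of another. Of the 9 measured interferon response genes 1 had groups that did not overlap.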
